A study of Schizosaccharomyces pombe with 3 samples.

Results

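The late ergosterol biosynthesis enzymes of fission yeast, Schizosaccharomyces pombe, turn lanosterol, the first sterol of the pathway, into ergosterol. Genes were chosen by name from the probe annotation: erg11, erg24, erg25, erg26, erg27, erg6, erg2, erg31, erg32 and erg5. The annotation held 9 of these 10 symbols, each with 1 probe set, among 2896 fission yeast genes that the annotation names. Another 5390 probe sets, controls included, had no gene name there and were not used, so "all genes" below means the 2896. No probe set carried the symbol erg26, so the enzyme that acts between erg25 and erg27 was not analysed here. The signals came from 3 Affymetrix expression arrays, 1 for each sample, hybridised with biotin-labelled total RNA of wild type cells. The strain was h+ (plus mating type) and carried leu1-32, ade6-210 and ura4-DS/E, alleles of leucine, adenine and uracil biosynthesis genes. Liquid cultures in YEA, a rich medium, were kept at 30 degrees. With a single group there was no second condition, and the labels do not say whether each array had a culture of its own. The p-values below therefore measure only the spread between these arrays, which may be technical. Signals are averages over whole cultures, so fewer cells with a transcript and less of it per cell cannot be told apart.

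Ergosterol is the main sterol of fungal membranes and takes the place that cholesterol has in animal cells. The late enzymes sit mainly in the membrane of the endoplasmic reticulum. They strip methyl groups from the ring system of lanosterol, add a methyl group to its side chain and shift or introduce double bonds. Several of these steps consume molecular oxygen, and fission yeast regulates sterol genes by oxygen and sterol supply through the membrane-bound transcription factor Sre1, a relative of mammalian SREBP. Azole and morpholine antifungals inhibit enzymes of this part of the pathway, and polyenes such as amphotericin B bind its product.

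Signals are linear MAS5 intensities. Their means, with 2% of the values trimmed from either end, differed by 0.00158% between arrays, as a scaling of the arrays to 1 target would set them. The median fission yeast gene had a signal of 298, 302 and 296 on arrays 1, 2 and 3. The arrays also carry 2601 probe sets of another yeast, which gave the background. The background limit of an array was the 95th percentile of these probe sets, a signal of 1.20, 1.24 and 1.18. Markers of both mating types were above it, as were 99.9% of all fission yeast genes. Signals ran from 13.9 to 415 for 3 genes of plus (P) cells and from 3.83 to 351 for 4 genes of minus (M) cells. In the bottom 25% of mean signal lay 2 of the 3 and 2 of the 4. Passing the limit thus said nothing particular of mating type, and these markers did not set the label h+ apart. How bright a probe set is depends on its sequence as well as on the transcript, so an order of genes by signal is an order of probe set signals on these arrays. Each value after ± is the SD over the arrays (n = 3), on the log2 scale.

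All 9 genes gave signal above the background limit, as did 99.9% of all fission yeast genes, and their levels differed. Signals of erg5, erg6 and erg11 lay between 886 and 1052, those of erg2, erg27 and erg24 lay between 451 and 516, and those of erg32 and erg25 lay between 321 and 397. The C-5 desaturase gene erg31 stood far below the others, with no signal above 50.4. The median of the 9 genes was a log2 signal of 8.96, against 8.22 over all fission yeast genes, and 8 of the 9 lay above this median of all genes.

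**Figure D1:**
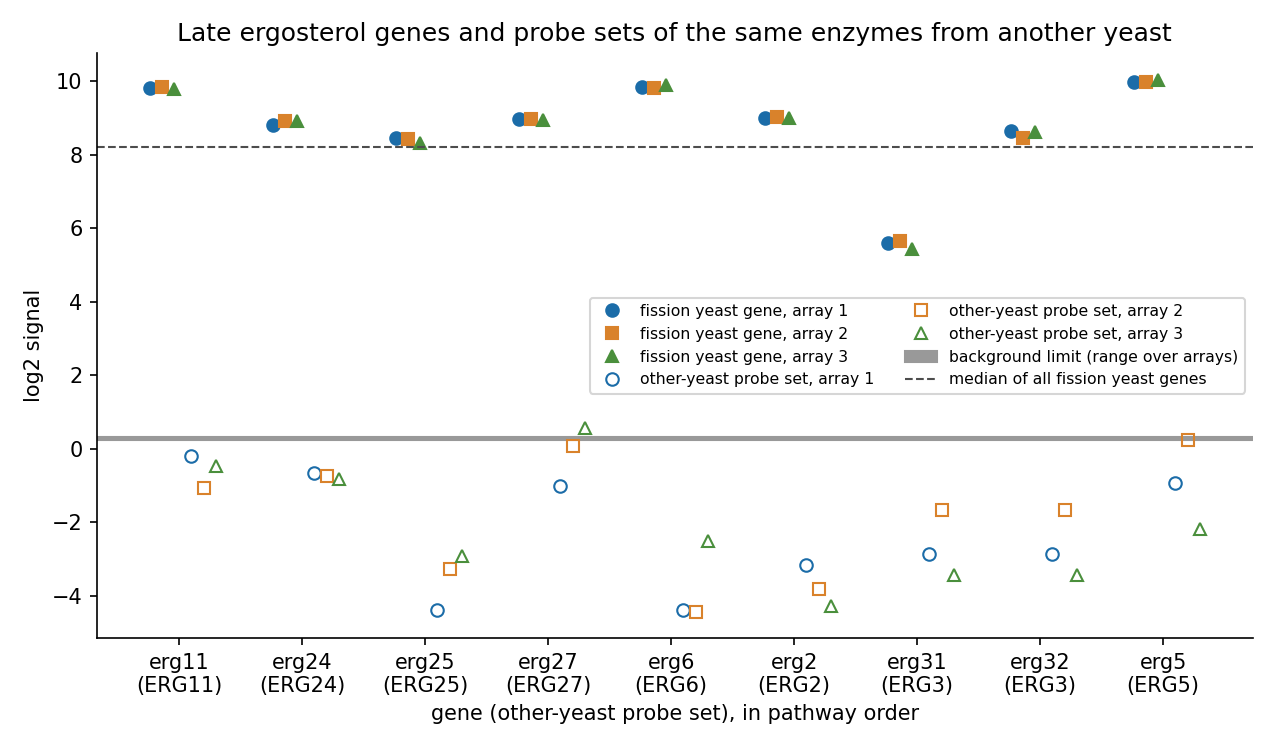
Log2 signal (vertical axis) of the 9 late ergosterol genes in pathway order (filled symbols) and of the probe sets of the same enzymes from another yeast (open symbols), on arrays 1, 2 and 3. The grey band is the range of the background limit over the arrays and the dashed line is the median of all fission yeast genes, 8.22. The open symbols of erg31 and erg32 show the same probe set, ERG3. Apart from erg31, at 5.56, all filled symbols lie above the dashed line.

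The first late enzyme, Erg11, is a cytochrome P450 that removes a methyl group from lanosterol and is the target of azole drugs. The gene erg11 (SPOM_SPAC13A11.02C, probe set 1773847_at) gave signals of 899, 921 and 886 on arrays 1, 2 and 3. These values differed by at most 1.04-fold, and the log2 signal was 9.82 ± 0.03. By mean signal it ranked 265 among the 2896 genes.

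Erg24 reduces the double bond that Erg11 leaves behind and is a target of morpholine fungicides. The gene erg24 (SPOM_SPBC16G5.18, probe set 1773655_at) gave signals of 451, 484 and 483. Array 1 was the lowest and the others were nearly equal. The log2 signal was 8.88 ± 0.06, rank 894.

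Erg25, Erg26 and Erg27 act together to take off the next methyl groups: Erg25 oxidises them, Erg26 removes them as carbon dioxide, and Erg27 reduces the ketone that is left. The oxidase gene erg25 (SPOM_SPAC630.08C, probe set 1770781_at) gave signals of 352, 341 and 321, a log2 signal of 8.40 ± 0.07. The ketoreductase gene erg27 (SPOM_SPBC1709.07, probe set 1773530_at) gave signals of 503, 501 and 488, a log2 signal of 8.96 ± 0.02. The signals of erg25 lay below those of erg27 on every array. Their ranks were 1321 and 834.

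Erg6 adds to the side chain a methyl group that cholesterol lacks. The gene erg6 (SPOM_SPBC16E9.05, probe set 1773447_at) gave signals of 909, 894 and 958, a log2 signal of 9.85 ± 0.05 and rank 246. Erg2 is the isomerase that moves a double bond within the ring system. The gene erg2 (SPOM_SPAC20G8.07C, probe set 1779744_at) gave signals of 505, 516 and 513. It had the smallest spread of the 9 genes, 8.999 ± 0.02 on the log2 scale, and ranked 800.

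The next step, the C-5 desaturation, is assigned to a pair of related genes in fission yeast, erg31 and erg32, while budding yeast has ERG3. The gene erg31 (SPOM_SPAC1687.16C, probe set 1773018_at) gave signals of 48.2, 50.4 and 43.6. The gene erg32 (SPOM_SPBC27B12.03C, probe set 1771891_at) gave signals of 397, 353 and 393. The groups of values did not overlap. The log2 signals were 5.56 ± 0.11 for erg31 and 8.57 ± 0.10 for erg32, and the ranks were 2600 and 1184.

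Erg5, a second cytochrome P450, introduces the double bond in the side chain. The gene erg5 (SPOM_SPAC19A8.04, also cyp61, probe set 1777135_at) had the highest signals of the 9, with 1010, 1003 and 1052 on arrays 1, 2 and 3. Its log2 signal was 9.996 ± 0.04, and it ranked 181 among all genes.

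The contrast between erg31 and erg32 was the same in direction on each array. The log2 signal of erg31 minus that of erg32 was -3.04 on array 1, -2.81 on array 2 and -3.17 on array 3. The mean difference was -3.01 ± 0.19, and the signal of erg32 was 8.05 times that of erg31 on this scale. The difference was much larger than its spread between arrays. An exact two-sided permutation test over the arrays gave p = 0.25, the smallest p that this test can give with 3 arrays, so the test cannot pass a threshold of 0.05. Between the means of the pair lay 1415 other genes, or 48.9% of all.

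**Figure D2:**
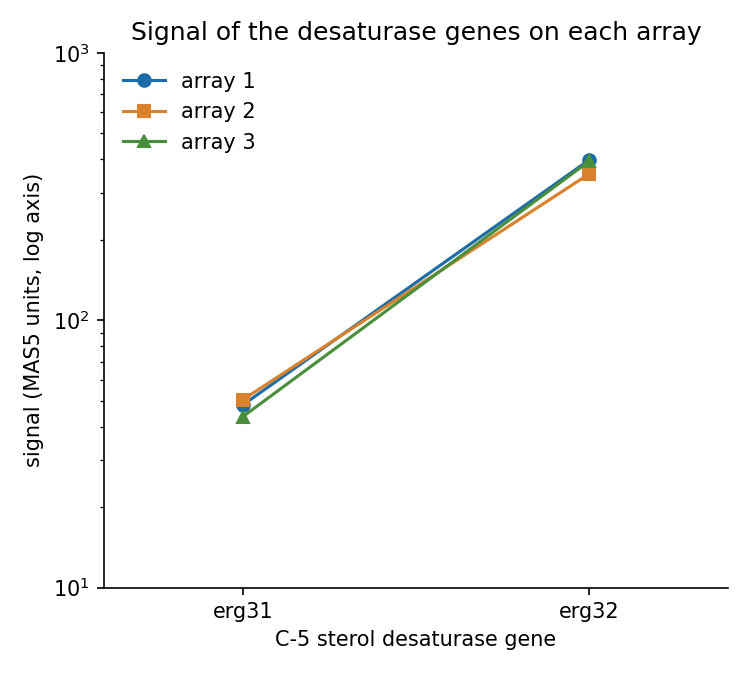
Signal of the C-5 desaturase genes erg31 (left) and erg32 (right) in MAS5 units on a log axis, with a line for each array. On each array erg31 lies between 43.6 and 50.4 and erg32 between 353 and 397.

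The deviations of the pair ran in opposite directions on arrays 2 and 3. On array 2, erg31 was 0.09 above its own mean and erg32 was 0.11 below its own mean on the log2 scale. On array 3 the deviations were -0.12 for erg31 and 0.05 for erg32. Array 2 thus had the smallest gap of the pair, 6.99-fold, and array 3 the largest, 9.03-fold, with 8.25-fold on array 1. The SD of erg31 was close to that of other dim genes: genes in the bottom 25% of signal had a median SD of 0.110. The SD of erg32, 0.096, was at the percentile 83.3 of genes of like signal (those between the median and the top 25%), whose median SD was 0.0513. How far the probes of either gene also bind the transcript of the other was not tested.

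Other pairs of related genes in sterol metabolism gave both small and large gaps. The sterol ester synthase genes are1 and are2, which encode enzymes that store sterol as fatty acid esters, gave log2 signals of 5.95 ± 0.05 and 6.04 ± 0.14, a difference of -0.09 ± 0.13, and their order changed between arrays. The prenyl diphosphate synthase homologues spo9 and fps1 gave 6.79 ± 0.11 and 9.58 ± 0.02, a difference of -2.79 ± 0.10, with spo9 the lower on each array. The regulator gene sre1 and its homologue sre2 gave 8.42 ± 0.03 and 4.16 ± 0.16, farther apart than erg31 and erg32. The pairs are examples and not a full set of related genes. Their gaps are differences between probe sets, as for erg31 and erg32.

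Ordered by signal, the 9 genes fell as erg5, erg6, erg11, erg2, erg27, erg24, erg32, erg25 and erg31. The signals of erg6 and erg11 overlapped and erg6 was the higher on 2 of the arrays, so these neighbours did not differ beyond their spread. The signals of erg2, erg27 and erg24 did not overlap, but the steps between them were small. From erg2 to erg27 the step was 0.04 ± 0.03 and from erg27 to erg24 it was 0.07 ± 0.08 on the log2 scale, and this second step was smaller than its SD. The step from erg5 to erg6 was 0.15 ± 0.02. The largest steps were from erg11 to erg2, at 0.82 ± 0.03, and from erg25 to erg31, at 2.84 ± 0.07.

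All 9 genes passed the test against the background, as did nearly every gene. The log2 signal minus the limit of the same array was tested against 0 with limma over the 2896 genes with Benjamini-Hochberg adjustment, and 99.9% of genes were above at an adjusted p under 0.05. Likewise 99.9% of genes were above the limit on all 3 arrays, and 2894 genes passed by both counts. The count of 9 of 9 is thus at the share of all genes and says nothing particular of the members. The lowest member, erg31, exceeded the limit by 5.29 (SE 0.05) on the log2 scale, or 39.2-fold (limma adjusted p = 1.55e-12). The highest, erg5, exceeded it by 9.73 (SE 0.05), or 846-fold (limma adjusted p = 1.2e-13). The members between them exceeded it by 8.13 (erg25) to 9.57 (erg6). These sizes depend on how low signals are treated: with a pseudocount of 16 the excess was 1.88 for erg31 and 5.91 for erg5 on the log2 scale.

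The probe sets of the same enzymes from the other yeast are part of the set that gave the background limit. The probe sets named ERG11, ERG24, ERG25, ERG26, ERG27, ERG6, ERG2, ERG3, ERG5 and ERG4, in the style of budding yeast symbols, had signals between 0.0463 and 1.49. Of these 30 values, 1 was above the limit of its array, that of ERG27 on array 3 at 1.49. The dimmest fission yeast member, erg31, gave the signals of 48.2, 50.4 and 43.6 above, against 0.136, 0.313 and 0.0923 for the desaturase probe set ERG3. Since ERG3 was below the limit on all 3 arrays, the limit gives the only bound, and erg31 exceeded it by the 39.2-fold above. The median SD between arrays was 0.0525 for the 9 genes, against 0.768 for these probe sets of the other yeast. As all but 1 of the 30 other-yeast values lay below the limit, these SDs are not of like signals.

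**Figure D3:**
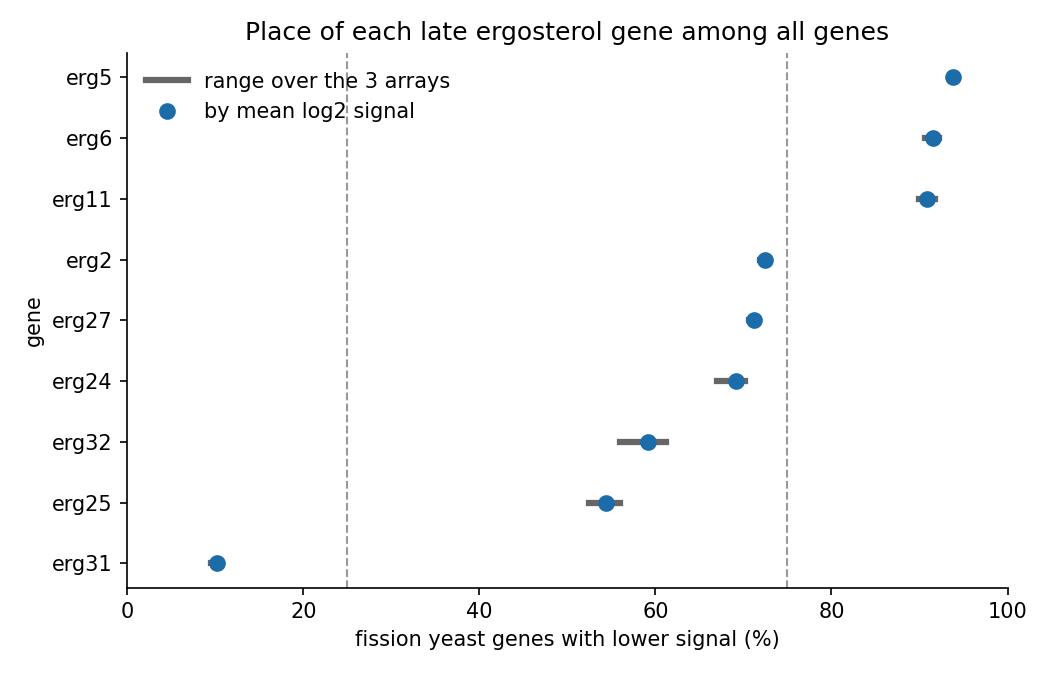
Percentage of all fission yeast genes with a lower signal than each late ergosterol gene (horizontal axis), by mean log2 signal (points) and as a range over the 3 arrays (bars). Dashed lines mark the bottom and the top 25%; erg5, erg6 and erg11 lie in the top 25% and erg31 in the bottom 25%.

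Against all fission yeast genes, the late enzymes were spread over the upper range with erg31 as the exception. In the top 25% of mean signal lay 3 of the 9 genes, or 33.3%, where 25% of all genes lie by construction. These were erg5, erg6 and erg11, and all of them were also in the top 10%, which holds 10% of all genes. In the bottom 25%, again 25% of all genes, lay erg31 alone, or 11.1% of the 9. The share of genes with a lower signal was 93.8% for erg5, 91.5% for erg6 and 90.9% for erg11. For erg11 it ran from 89.9% to 91.7% over the arrays, so on 1 array it was just outside the top 10%. It was 72.4% for erg2, 71.2% for erg27 and 69.2% for erg24. It was 59.1% for erg32, 54.4% for erg25 and 10.2% for erg31. No member moved across the limits of the top or bottom 25% from array to array, and the widest range was that of erg32, from 56.0% to 61.2%.

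Grouped by chemistry, the enzymes that use oxygen held both ends of the order. The 5 oxygen-using members erg11, erg25, erg31, erg32 and erg5 had a median log2 signal of 8.57 and ran from 5.56 to 9.996. The other 4 measured members, erg24, erg27, erg6 and erg2, had a median of 8.98 and ran from 8.88 to 9.85. The range of the second group lay within that of the first.

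The arrays gave nearly the same picture of the pathway. The median log2 signal of the 9 genes was 8.98, 8.97 and 8.93 on arrays 1, 2 and 3, against 8.22, 8.24 and 8.21 over all genes. The deviation of an array from the mean of the gene lay between -0.12 and 0.09 for every member. Array 1 gave the highest value of 3 members and the lowest of 2, array 2 the highest of 4 and the lowest of 3, and array 3 the highest of 2 and the lowest of 4. The median deviation of the members was -0.005, 0.01 and 0.005, against -0.002, -0.005 and 0.007 for all genes. The median SD of the 9 genes was 0.0525, against 0.0605 over all genes.

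**Figure D4:**
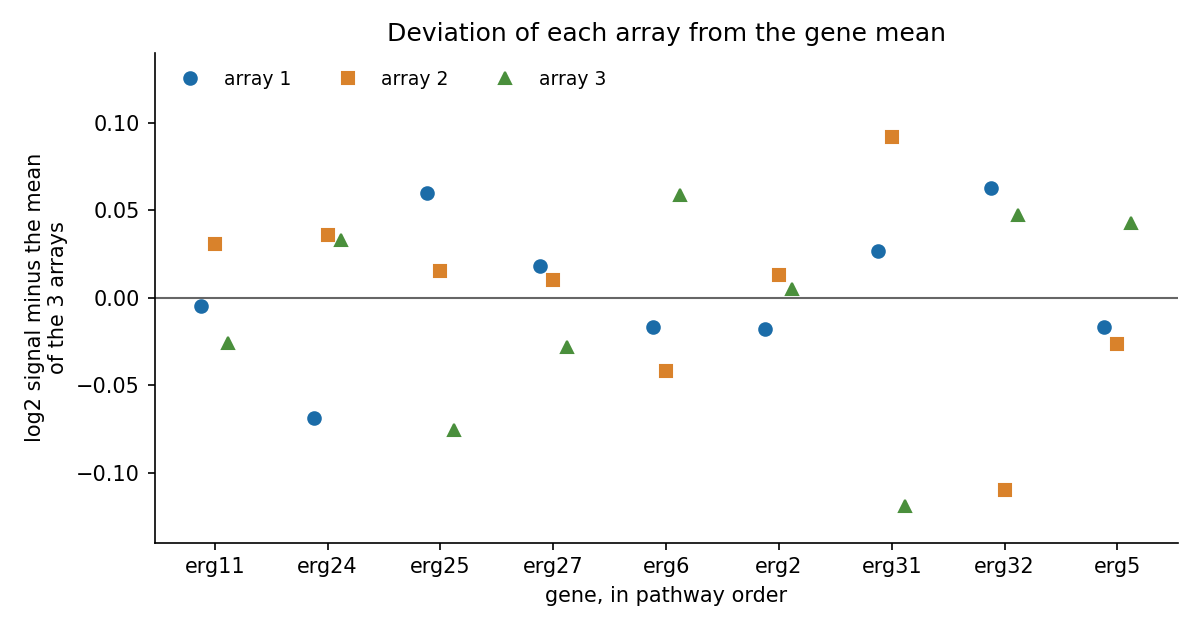
Log2 signal on each array minus the mean of the 3 arrays (vertical axis) for the 9 late ergosterol genes in pathway order. The points lie between -0.12 and 0.09, with the widest scatter for erg31 and erg32.

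The last step, reduction of a side-chain double bond, is made by the product of sts1 (current symbol erg4), which was not among the chosen genes. The gene sts1 gave signals of 485, 533 and 411, a log2 signal of 8.89 ± 0.19 and rank 891, close to erg24. Its SD was above those of the 9 members, and array 3 gave the low value.

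Partners of the late enzymes were bright, with 1 exception. The scaffold gene erg28, whose product in budding yeast tethers the demethylation enzymes, gave 9.77 ± 0.04. The gene ccr1, for the reductase that passes electrons to cytochrome P450 enzymes, gave 9.64 ± 0.05. The cytochrome b5 gene oca8 gave 9.81 ± 0.02. The haem-binding regulator gene dap1, whose product acts with the P450 enzymes Erg5 and Erg11, gave signals of 201, 212 and 221, a log2 signal of 7.72 ± 0.07, below the median of all genes.

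Upstream, the 12 genes listed for the route from acetyl-CoA to lanosterol had a median log2 signal of 9.10, beside 8.96 for the late genes. All 12 were above the background, 6 were in the top 25% and 1 was in the bottom 25%. The highest was the thiolase gene erg10 at 9.71 ± 0.03, which begins the mevalonate pathway. The lowest, and the 1 in the bottom 25%, was spo9. It was listed as a homologue of fps1, and whether it serves this route was not tested. None of the 12 reached the top 10%, which holds 10% of all genes and begins at 9.78, close above erg10. In it lay erg5, erg6 and erg11, and also the partner gene oca8. The lanosterol synthase gene erg7, which makes the substrate of Erg11, gave 9.49 ± 0.03.

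The late genes had a median of 8.96, against a median log2 signal of 8.22 for the 10 measured sterol regulators, Sre1 and its partners among them. All 10 were above the background, with 0 in the top 25% and 1 in the bottom 25%. The highest was dsc1, for a subunit of the ubiquitin ligase needed to cleave Sre1, at 8.82 ± 0.05. The lowest was sre2, for an Sre1 homologue, with signals of 20.4, 16.4 and 17.2 and a log2 signal of 4.16 ± 0.16. Thus erg31, at 5.56, lay between sre2 and the sterol ester synthase genes, while the other 8 late genes lay above the regulators' median. A further listed regulator, dsc5, had no probe set of that symbol and was not analysed here.

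**Figure D5:**
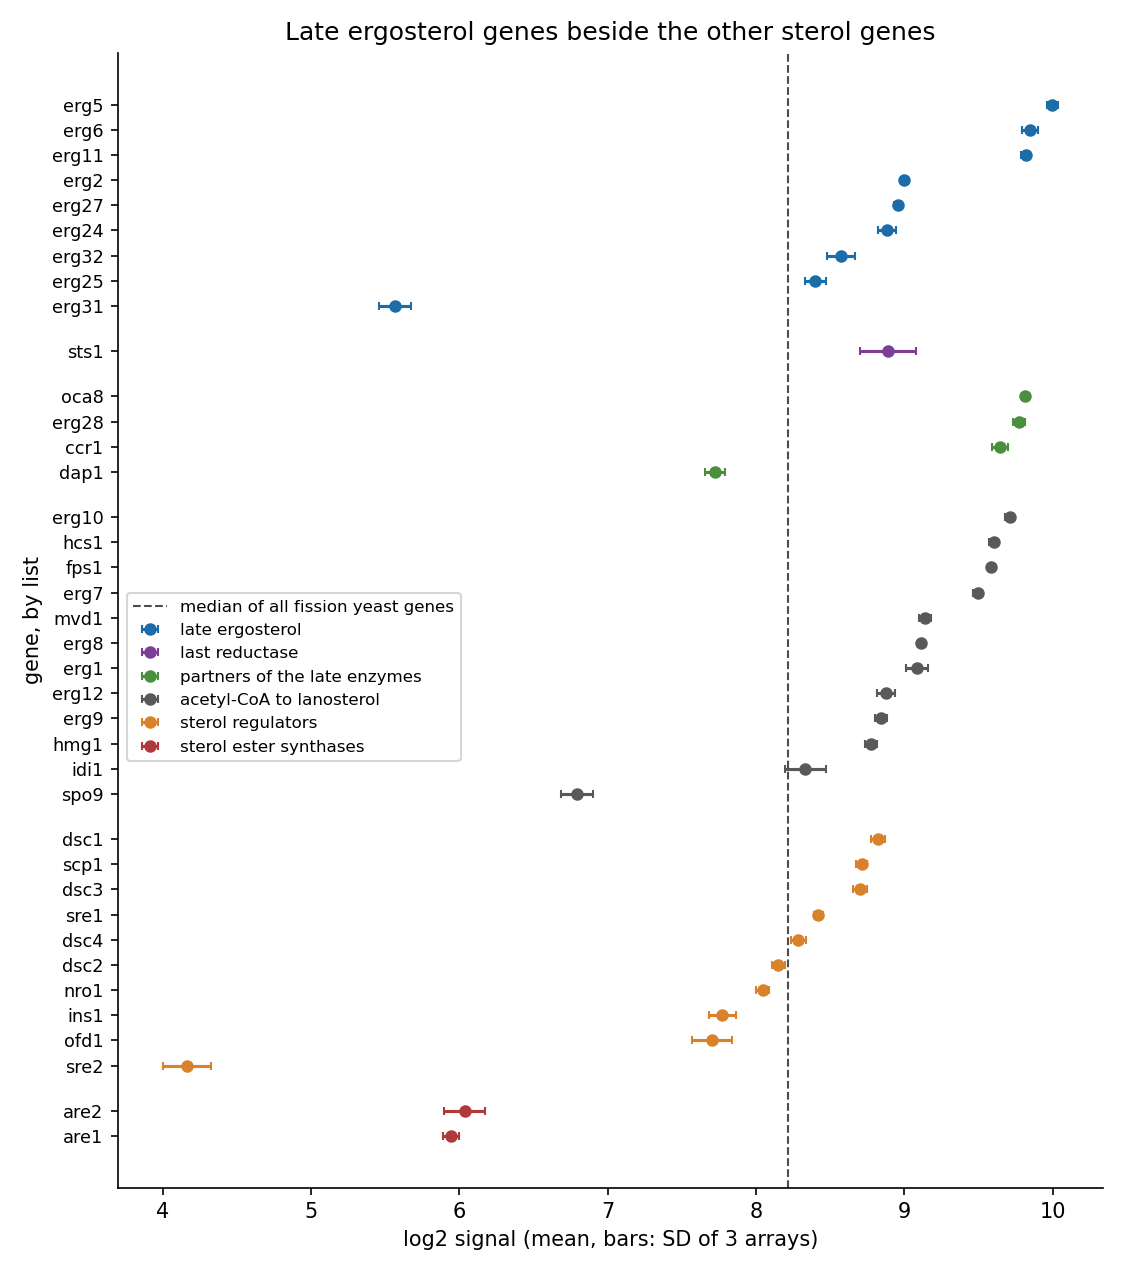
Mean log2 signal (horizontal axis, bars: SD of 3 arrays) of the late ergosterol genes and, below them, of the last reductase, the partners, the genes listed from acetyl-CoA to lanosterol, the regulators and the sterol ester synthases. The dashed line is the median of all fission yeast genes, 8.22; erg31, spo9, sre2, are1 and are2 lie more than 1 log2 unit below it.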

How the data were processed

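Each array has 1 deposited intensity per probe set on a linear scale, made by the authors with MAS5, per the submitters' processing notes. The sources used here give no scaling target, probe mask or genome build. Trimmed means of the arrays differed by less than the 5% tolerance, so the intensities were used as deposited, turned into log2 and not normalized further. No value was at or below 0. Gene names came from the platform annotation of the probe sets, updated through the gene identifier with a RefSeq gene table of assembly ASM294v3, which served for names only. Where a gene had several probe sets, the mean of their log2 signals was taken. Probe sets numbering 2601 with identifiers outside that table and capitalised symbols were taken as those of another yeast, and 3 with retired identifiers, 20 with several genes and 5390 with no gene name were left out.

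Differences from the background limit were fitted over 2896 genes with limma 3.58.1 in R 4.3.3 (lmFit with an intercept, eBayes, two-sided, Benjamini-Hochberg). The fit was tested on simulated data, with 2696 genes set at the limit and others raised by 0.25 to 3 log2 units. It called 8 of the 2696, 34 of 50 raised by 0.25 and all 50 raised by 3. Every member exceeded the limit by 5.29 or more, beyond these settings. The pair erg31 and erg32 was tested with scipy 1.17.1. The members, the gene lists and the tests were chosen with earlier results of these data known. The genes named were all members and, of the other lists, those described above: all of the partners, ester synthases and probe sets of the other yeast, and the highest and lowest of the longer lists. Outside this rule, erg7, fps1 and the level of sre1 were given after their values were seen. No sequence of a gene or probe was used. The number of arrays limits the precision.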

Additional observations from a re-analysis of the deposited data

How the results depend on the processing

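The count of 9 members above the background limit was 9 under each alternative, but with 99.9% of all genes above it the count had little room to change. The size of the excess was not as stable, and with a pseudocount of 16 that of erg31 was 1.88, against 5.29 without it, on the log2 scale. The count of 3 members in the top 25% was 3 with the pseudocount, with quantile normalization, with each array left out and for the top 10%. The log2 difference of erg31 minus erg32 was -2.65 with the pseudocount, -3.01 with quantile normalization and -3.11 to -2.93 with an array left out, where the smallest exact permutation p is 0.5. The median log2 signal of the members, 8.96, was 9.003 with the pseudocount and 8.95 to 8.97 with an array left out. The shift with the pseudocount was larger than the SD of this median between arrays, 0.0245, so the median moved there. Median centring, the highest probe set of a gene (the members have 1 each) and the restriction to genes above the limit left these values the same, and by their construction had little or no room to change them. No pairing of samples was possible because the arrays form 1 group. The test of erg31 against erg32 was already paired within each array. With 3 arrays, outlying samples could not be tested.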
